A study of Homo sapiens with 22 samples.

Results

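The comparison of BAZ1B KO with WT at D0 rested on 6 of the 22 RNA-Seq libraries of the series, 3 from BAZ1B KO subclones and 3 from WT subclones of HUDEP-2 cells. They were chosen by their labels alone, as the D0 libraries of the BAZ1B experiment. HUDEP-2 is an immortalized human erythroid progenitor line from cord blood, and D0 is the day on which it was still proliferating in expansion medium with stem cell factor, erythropoietin, dexamethasone and doxycycline, before the change to maturation medium. The KO subclones carried a CRISPR/Cas9 deletion made with a pair of guides around the first coding exon of BAZ1B, while the WT subclones went through the same procedures without the deletion. The replicates are described as subclones, started by limiting dilution, so a difference between KO and WT also holds whatever differed between the founding cells. Whether the 3 KO libraries stand for 3 independent subclones was not tested, nor was it for the 3 WT libraries. The number of independent KO subclones may be lower, given the position of KO replicate 3 described below. That of WT may be lower too, as the WT libraries were nearly alike. A further 6 libraries of the same subclones, taken at D6 of maturation, entered the fit and were used to see whether a difference at D0 was found again.

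BAZ1B, also called WSTF, joins the ATPase SMARCA5 in the WICH complex, which moves nucleosomes during replication and transcription, and it is the tyrosine kinase that phosphorylates the histone variant H2A.X at Y142. Its gene lies in the stretch of chromosome 7 that is deleted in Williams syndrome. According to the study, proliferating HUDEP-2 cells seem to resemble basophilic erythroblasts in form and gene expression. It places the start of chromatin condensation at that stage. Later stages appear in maturation medium, to which the D0 cells had not yet been moved. The comparison at D0 therefore asked which genes differed before the change to maturation medium.

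The deposited values were raw counts of reads per gene, with 33199408 to 41273244 counts per D0 library. Normalized counts below are counts scaled to a common effective library size, and all fold changes are log2 of KO over WT from the edgeR fit. Of the genes in the table, 13879 passed a filter on low counts and were tested, with p-values adjusted over all of them by Benjamini-Hochberg. The erythroid identity was plain in both genotypes: all 10 defining erythroid markers were detected, and together they took 6925 to 7560 CPM in WT and 8037 to 8669 in KO, CPM being counts scaled to the same total in each library. The list of mast cell and eosinophil markers summed to 558.9 to 583.9 CPM in WT and 558.5 to 745.6 in KO, with 4 of its 18 genes at 0 in every library. The megakaryocyte list summed to 78.4 to 83.8 in WT and 37.7 to 74.7 in KO, with 6 of 14 genes at 0, and the lymphocyte list to 32.7 to 35.2 and 12.5 to 27.1, with 3 of 11 at 0. A single gene made up most of both sums, ITGA2B with 95.2% to 97.2% of the former and PTPRC with 97.7% to 99.3% of the latter. The stem and early progenitor list summed to 8.72 to 10.03 in WT and 4.40 to 6.59 in KO, 86.8% to 95.7% of it from CRHBP and with 3 of 11 at 0, and the monocyte and granulocyte list to 40.3 to 43.3 and 39.9 to 53.6, 72.8% to 82.1% of it from SPI1 and with 4 of 16 at 0. Of 15 tested RNAs without a poly(A) tail, such as replication histones, 0 passed in edgeR or DESeq2 and 1 had an unadjusted p below 0.05, with a median fold change of 0.31 on the log2 scale. The part of these levels in the results below was not tested, and in bulk RNA fewer cells of one kind and less RNA per cell cannot be told apart.

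The 3 WT libraries were nearly alike, and the KO libraries were not. Pearson's r of log2 counts over 10916 genes was 0.997 to 0.998 between WT libraries, whereas it was 0.969 between KO replicates 1 and 2. KO replicate 3 lay closer to both, with 0.983 to replicate 1 and 0.993 to replicate 2. At 95 genes whose normalized counts were over 4-fold apart between KO replicates 1 and 2 and reached 100 in at least one of them, KO replicate 3 lay in between at 94, at a median of 0.484 of the way from replicate 2 to replicate 1. Keratin gene KRT19 had 1212 normalized counts in KO replicate 1, 0 in replicate 2 and 746 in replicate 3. The actin-bundling gene PLS3 had 16.7, 1059 and 561, and the synaptic vesicle gene UNC13B had 20.7, 712 and 391. The reverse was rare: replicate 1 lay between the others at 1 of 15 such genes and replicate 2 at 3 of 35. At D6, KO replicate 3 was again between the others at 55 of 55 genes. The deviations of a library from its group mean at D0 and at D6 correlated at 0.609, 0.658 and 0.159 for the same-numbered KO libraries and at 0.124, 0.0107 and 0.169 for the WT libraries. How KO replicate 3 came to this position was not tested. If its RNA or cells came from both other KO subclones, the errors and p-values below would rest on 2 independent KO subclones, and the counts of changed genes are therefore given with and without it. Of the 95 genes, 6 were called higher and 1 lower at an adjusted p below 0.05 in the edgeR test, and 0 were among the DEGs defined below.

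**Figure D1:**
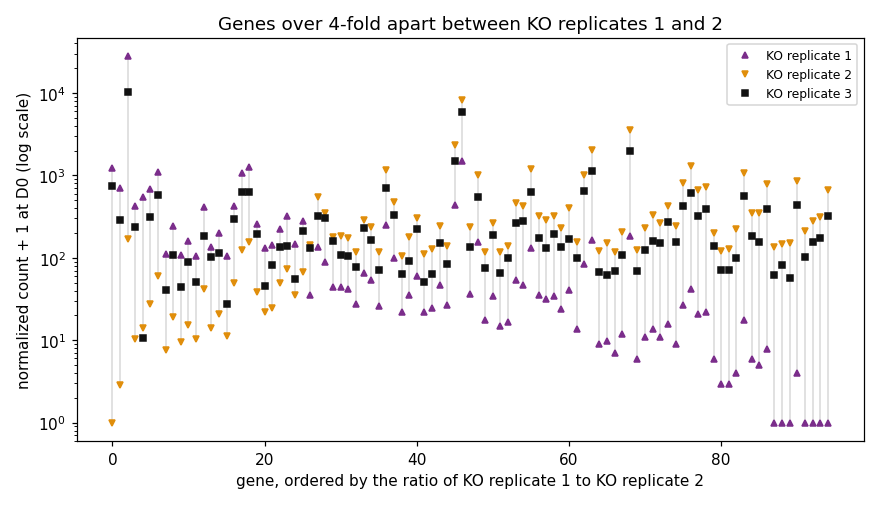
Normalized counts at D0 plus 1, on a log scale, of the 95 genes over 4-fold apart between KO replicates 1 and 2, ordered by their ratio. Grey lines join replicates 1 (triangles up) and 2 (triangles down), and the squares of replicate 3 lie between them at 94 genes.

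At D0, 14 genes were higher and 36 lower in KO cells compared to WT when a DEG had to reach an adjusted p of less than 0.001 together with a log2 fold change of over 1.5 in either direction. These 50 DEGs were 0.360% of the tested genes, with 0.101% higher and 0.259% lower. At an adjusted p below 0.05 alone, 173 genes were higher (1.25%) and 366 lower (2.64%), or 3.88% of all genes tested. Many of these differences were small: 160 of the 539 genes differed by less than 0.5 on the log2 scale and 144 by 0.5 to 1, while 168 differed by more than 1.5. All 50 DEGs had no overlap between the 3 KO and the 3 WT libraries, a state that 22.5% of all tested genes shared. The median fold change over all tested genes was 0.003 on the log2 scale. The test without KO replicate 3 called 10 DEGs higher and 25 lower, and 80 genes higher and 178 lower at an adjusted p below 0.05, and all 50 DEGs kept an adjusted p below 0.05 in it. Without KO replicate 1 the DEGs numbered 26 higher and 44 lower, and without any one of the WT libraries 7 were higher.

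**Figure D2:**
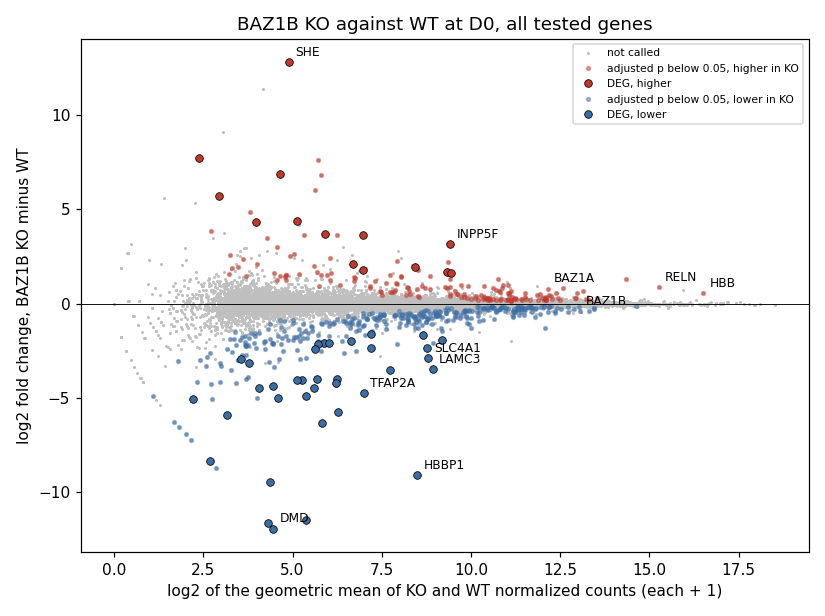
Each tested gene at D0 by its mean level (log2 of the geometric mean of KO and WT normalized counts, each plus 1) and its log2 fold change of KO over WT. Outlined points are the 14 DEGs higher and 36 lower in KO, smaller coloured points the other genes at an adjusted p below 0.05, and grey points the rest. The fitted changes of genes with hardly any read in one group, such as SHE and DMD, depend on the prior count of the fit.

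The targeted gene itself, BAZ1B at chr7:73440406-73522293 on the minus strand, had 9913, 9823 and 9703 normalized counts in the WT libraries and 6556, 8349 and 7349 in the KO libraries. All KO libraries were below all WT libraries, by 0.40 ± 0.07 (SE) on the log2 scale with an adjusted p of 0.00415. Its paralog BAZ1A, the partner of SMARCA5 in the ACF and CHRAC remodelers, had 3531, 3434 and 3380 normalized counts in WT and 6173, 5854 and 5980 in KO. BAZ1A rose by 0.80 ± 0.04 on the log2 scale (adjusted p = 7.93e-08), the groups did not overlap, and the change was 0.84 at D6. None of the other 10 tested genes of the BAZ and ISWI remodelers passed the test. Among the 18 tested neighbours of BAZ1B on chromosome 7q11.23, CLDN3, a tight junction protein, was the only one that passed, with 53.9, 32.7 and 38.8 normalized counts in WT and 6.90, 10.4 and 11.8 in KO (adjusted p = 0.00868). The median of these 18 neighbours was -0.05, and 5.56% of them were called, near the 3.88% of all tested genes.

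The 36 lower DEGs opened with genes that were read in all WT libraries and in no KO library. DMD, which encodes dystrophin, the link between actin and the muscle membrane, lies at chrX:31097677-33339609 and had 528, 454 and 477 normalized counts in WT and 0 reads in every KO library. Against a floor of 3 reads over the 3 KO libraries together, it was at least 488-fold lower. The zinc finger gene ZNF215 (chr11:6926404-7001004) had 394, 395 and 397 in WT and no read in KO, at least 397-fold lower. PITX1, a homeobox factor of hindlimb development, had 43.0, 37.9 and 38.8 in WT and no read in KO, at least 40.0-fold lower. No read of these 3 genes was found in any KO library, while the 3 WT libraries held each at a similar level.

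In a further 4 lower DEGs the KO libraries held 1 to 3 reads in all. AC005064.1, a gene model whose name had no match in the annotation used here, had 1319, 1290 and 1248 normalized counts in WT and 1 read in KO, a ratio of 3871 with a 95% counting interval of 694 to 152950. PEG3, a paternally expressed imprinted zinc finger gene at chr19:56810077-56840728, had 314, 328 and 335 in WT and 1 read in KO, a ratio of 982 (176 to 38825). ZNF214, the neighbour of ZNF215, was lower by a ratio of 70.7 (19.2 to 588), and the protocadherin gene DCHS1 by 46.2 (7.94 to 1860). ZNF214 and ZNF215 overlap by 896 bases on opposite strands, and ZNF214 had a mean of 47.0 normalized counts in WT beside 395 of ZNF215, so reads in the overlap cannot be told apart. These exact binomial intervals cover counting error only.

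HBBP1, the pseudogene of the beta-globin cluster at chr11:5242120-5243537, was the most abundant lower DEG. It had 8699, 8172 and 7947 normalized counts in WT and 8.87, 19.8 and 16.1 in KO, a change of -9.10 ± 0.14 on the log2 scale (adjusted p = 5.08e-13). No KO library came within 100-fold of a WT library. HBBP1 overlaps 88 bases of HBD on the annotation, and whether the counting used strand is not given in the sources used here, so reads in that overlap cannot be told apart.

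TFAP2A, the AP-2 alpha factor of neural crest and skin, had 657, 649 and 630 normalized counts in WT and 28.6, 19.8 and 24.6 in KO (-4.73 ± 0.25, adjusted p = 1.49e-07). ZFPM2, the FOG2 partner of GATA factors in the heart, had 269, 187 and 187 in WT and 8.87, 6.59 and 5.35 in KO (-4.92 ± 0.25, adjusted p = 1.3e-07). The X-linked zinc finger gene ZNF711 had 426, 483 and 508 in WT and 2.96, 5.65 and 8.56 in KO (-6.35 ± 0.33). In all 3 genes the highest KO library was over 10-fold below the lowest WT library. TFAP2A-AS1, which overlaps 438 bases of TFAP2A, had 12.1 to 22.9 normalized counts in WT and no read in KO, and reads in the overlap cannot be told apart.

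LAMC3, a laminin chain of basement membranes, had 1622, 1663 and 1567 normalized counts in WT and 104, 178 and 161 in KO (-3.45 ± 0.17, adjusted p = 8.38e-08). SLC4A1, which encodes band 3, the anion exchanger of the red cell membrane, had 1163, 1277 and 1178 in WT and 239, 77.2 and 177 in KO (-2.88 ± 0.25, adjusted p = 2.53e-05). SEMA4D, a membrane-bound semaphorin, had 1095, 941 and 957 in WT and 278, 106 and 192 in KO (-2.38, adjusted p = 0.000161). The keratin gene KRT18 had 97.0 to 154 in WT and 0 to 6.90 in KO (-5.02), with the limit that keratin pseudogenes and the overlapping KRT8 share sequence with it. RFTN1, a lipid raft protein, had 311 to 327 in WT and 6.42 to 22.6 in KO (-4.23), and the angiopoietin gene ANGPT1 21.9 to 37.9 in WT and 2.82 to 4.28 in KO (-2.95).

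SLFN13, an endoribonuclease of the Schlafen family, had 516, 540 and 576 normalized counts in WT and 6.90, 14.1 and 8.56 in KO (-5.76 ± 0.22, adjusted p = 9.57e-09). KYNU, the kynureninase of tryptophan breakdown, had 146 to 154 in WT and 5.91 to 10.7 in KO (-4.04), and ASB9, a substrate receptor of a ubiquitin ligase, 710 to 715 and 49.9 to 71.9 (-3.50). HACD4, a dehydratase of fatty acid elongation, was at -1.66 and the cytoskeletal regulator gene ARHGEF3 at -4.48. TNFRSF1B, the second receptor of tumor necrosis factor, had 189 to 201 in WT and 38.6 to 69.0 in KO (-1.98, adjusted p = 1.26e-05). In each of these genes the KO libraries lay below all WT libraries, as in every lower DEG.

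**Figure D3:**
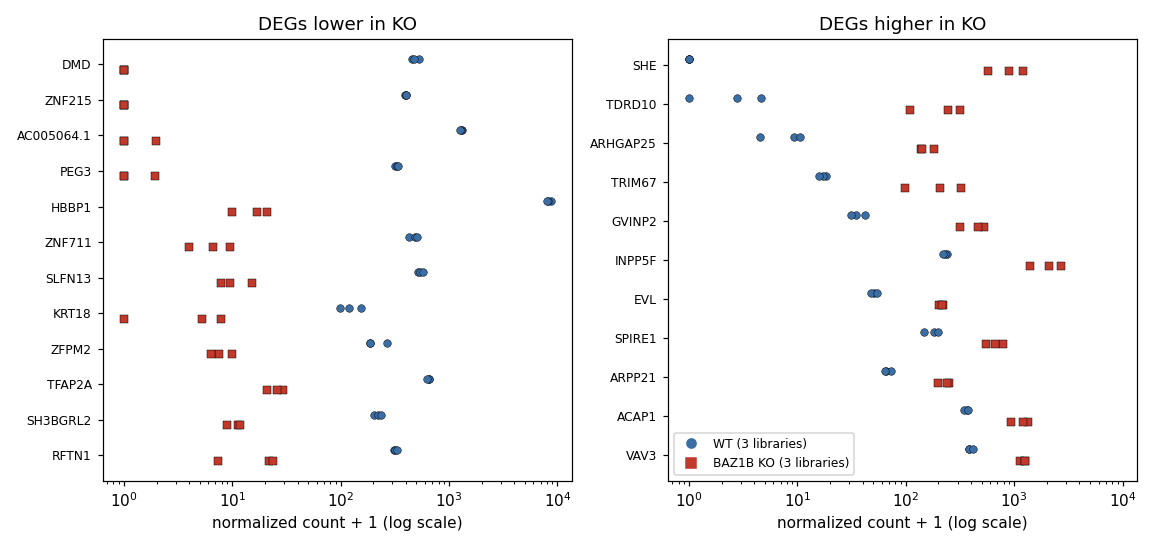
Normalized counts plus 1 on a log scale at D0 for the 12 lower and 11 higher DEGs with the largest changes among those with a mean of at least 50. Circles are the 3 WT and squares the 3 KO libraries, and in none of these genes do the groups overlap.

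The 14 higher DEGs were led by a pair of neighbours on chromosome 1. SHE, an SH2-domain adaptor gene at chr1:154469772-154502412, had no read in any WT library and 570, 1202 and 894 normalized counts in KO, at least 1009-fold higher against a floor of 3 reads over the WT libraries. TDRD10, a tudor-domain gene that starts head to head with it at chr1:154502219-154548147, had 3.66, 0 and 1.76 in WT and 107, 317 and 244 in KO (6.88 ± 0.81, adjusted p = 0.000293). KO replicate 1 was lowest in both genes and replicate 2 highest. The genes overlap by 194 bases on opposite strands, and reads in that stretch cannot be told apart.

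INPP5F, a phosphoinositide phosphatase gene with an imprinted transcript, had 239, 227 and 219 normalized counts in WT and 1399, 2694 and 2079 in KO (3.17 ± 0.28, adjusted p = 2.72e-05). ARHGAP25, a Rac GTPase-activating protein of blood cells, had 8.23, 9.48 and 3.53 in WT and 179, 136 and 139 in KO (4.40 ± 0.32). The ubiquitin ligase gene TRIM67 had 14.98 to 17.4 in WT and 324, 96.9 and 204 in KO (3.67). GVINP2, a pseudogene of the interferon-inducible giant GTPases, had 30.0 to 41.4 in WT and 314 to 520 in KO (3.62), so that its reads may in part belong to related copies.

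VAV3, an exchange factor for small GTPases downstream of receptors, had 383, 383 and 415 normalized counts in WT and 1142, 1255 and 1246 in KO (1.63 ± 0.11, adjusted p = 2.43e-06). The actin regulator gene EVL had 46.5 to 53.8 in WT and 201 to 220 in KO (2.08), and the actin nucleator gene SPIRE1 146 to 196 and 543 to 793 (1.94). ACAP1, a GTPase-activating protein for ARF6, stood at 1.68, and ARPP21, a cAMP-regulated phosphoprotein of neurons, at 1.77. Of the 3 higher DEGs with a mean below 50, the lactate transporter gene SLC16A8 had no WT read and was at least 30.0-fold higher. SERPINB1, an inhibitor of neutrophil proteases, had 2.58 to 3.53 in WT and 38.4 to 86.7 in KO (4.30), and the unmatched gene model AL022322.1 was higher by a ratio of 62.4 (16.9 to 522).

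Because the overlapping neighbours SHE and TDRD10 both rose and ZNF214 and ZNF215 both fell, the sequences around their start sites are given from RefSeq on GRCh38.p14, each from 250 bases before to 50 after the start on the gene's own strand. SHE is at chr1:154502363-154502662 on the minus strand, TDRD10 at chr1:154501969-154502268 on the plus strand, ZNF214 at chr11:7020297-7020596 on the minus strand and ZNF215 at chr11:6926176-6926475 on the plus strand. Capitals mark each CG dinucleotide, the site of DNA methylation, which silences many promoters of this kind when present. Methylation was not measured here.
SHE: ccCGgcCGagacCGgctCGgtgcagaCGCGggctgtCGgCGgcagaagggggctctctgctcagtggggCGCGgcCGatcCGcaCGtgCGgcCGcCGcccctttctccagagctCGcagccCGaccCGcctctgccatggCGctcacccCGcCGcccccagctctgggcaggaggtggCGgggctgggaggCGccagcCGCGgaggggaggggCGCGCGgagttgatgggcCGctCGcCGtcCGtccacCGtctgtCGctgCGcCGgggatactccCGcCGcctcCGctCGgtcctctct
TDRD10: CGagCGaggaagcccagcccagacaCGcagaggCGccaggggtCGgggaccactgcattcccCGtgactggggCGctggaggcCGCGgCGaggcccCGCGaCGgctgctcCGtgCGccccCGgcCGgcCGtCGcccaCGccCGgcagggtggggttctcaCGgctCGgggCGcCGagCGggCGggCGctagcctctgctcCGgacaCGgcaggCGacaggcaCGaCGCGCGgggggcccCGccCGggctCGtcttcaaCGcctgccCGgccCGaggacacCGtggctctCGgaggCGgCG
ZNF214: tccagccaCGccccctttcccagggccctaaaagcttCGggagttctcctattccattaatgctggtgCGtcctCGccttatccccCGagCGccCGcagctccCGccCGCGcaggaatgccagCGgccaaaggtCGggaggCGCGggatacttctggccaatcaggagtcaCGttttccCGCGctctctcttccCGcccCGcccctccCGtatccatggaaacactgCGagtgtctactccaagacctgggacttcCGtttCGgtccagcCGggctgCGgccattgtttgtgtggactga
ZNF215: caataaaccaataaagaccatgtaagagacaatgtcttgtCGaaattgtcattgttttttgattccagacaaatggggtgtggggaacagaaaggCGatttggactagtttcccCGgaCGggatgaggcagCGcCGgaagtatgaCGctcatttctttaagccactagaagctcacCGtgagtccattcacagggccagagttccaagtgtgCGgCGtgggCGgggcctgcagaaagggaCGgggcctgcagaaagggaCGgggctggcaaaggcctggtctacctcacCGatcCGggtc
The windows of SHE and TDRD10 held 41 and 45 CG, a ratio of observed to expected CG of 0.93 and 0.97. Those of ZNF214 and ZNF215 held 25 and 15, with ratios of 0.874 and 0.715. Among the start windows of all tested genes, 76.8% had a ratio above 0.6, a usual cutoff for a CpG island. The share was 43.9% of 41 windows of the lower DEGs, which covered 24 of the 36 genes, and 33.3% of 24 windows of the higher DEGs, which covered 11 of 14. For all 366 lower and 173 higher genes at an adjusted p below 0.05 it was 63.7% and 57.1%. The GATA motif AGATAA, searched on both strands, was in 14.6% of the windows of lower DEGs, 8.33% of those of higher DEGs and 5.76% of those of all tested genes. The E-box CACGTG was in 12.2%, 12.5% and 9.97%. These shares describe windows and were not tested.

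Called genes also lay next to each other. Of the 519 genes at an adjusted p below 0.05 with a known position, 63 fell in 27 runs of neighbouring tested genes that changed in the same direction, 20 runs lower and 7 higher. How many runs would arise if called genes were placed at random was not tested. Some runs are overlapping pairs whose reads cannot be told apart, such as SHE with TDRD10, ZNF214 with ZNF215 and TFAP2A with TFAP2A-AS1. The longest run held 5 lower genes around PEG3 on chromosome 19, at chr19:56397966-57235548: ZNF583, ZNF667, PEG3, ZNF264 and AURKC. FPR3, ZNF577, ZNF649 and ZNF613 formed a run of 4, and ZNF701, ZNF137P and ZNF83 a run of 3, both lower and on the same chromosome. On chromosome 6, BPHL, TUBB2A and TUBB2B were lower together, and on chromosome 22 the neighbouring cytokine genes LIF and OSM were higher. LIF had 1456, 1466 and 1468 normalized counts in WT and 2109, 2043 and 2560 in KO (0.61, adjusted p = 0.00433). On chromosome 19, 4.29% of 910 tested genes were lower, and on chromosome 8 4.43% of 429, against 2.64% over all chromosomes.

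The genes named ZNF, most of which encode zinc finger proteins of the KRAB family that silence repeats and imprinted loci, were counted after their changes had been seen. Of 354 tested, 8 were higher and 27 lower, with a median of -0.03 on the log2 scale, or 9.89% called beside 3.88% of all tested genes (1.25% higher and 2.64% lower). On chromosome 19, where many of the family sit in clusters, 4 of 160 were higher and 21 lower, and elsewhere 4 of 194 were higher and 6 lower. ZNF160 had 350, 328 and 314 normalized counts in WT and 84.7, 60.2 and 50.3 in KO (-2.34 ± 0.17, adjusted p = 3.01e-06). ZNF83 had 371 to 393 in WT and 146 to 192 in KO (-1.24), and ZNF875 579 to 621 and 244 to 343 (-0.99). The highest member among those that rose, ZNF689 on chromosome 16, had 4260 to 4896 in WT and 6029 to 9877 in KO (0.84, adjusted p = 0.00445). Members of this family share long stretches of sequence, which the counting may have divided in ways not stated.

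Imprinted genes are expressed from the allele of only one parent. Of 26 tested, 2 were higher and 4 lower, 23.1% called against 3.88% of all tested genes, and their median was -0.08. Besides ZNF215, PEG3 and INPP5F, the growth suppressor PLAGL1 had 899, 871 and 903 normalized counts in WT and 515, 471 and 480 in KO (-0.87 ± 0.14, adjusted p = 0.00372). MEST was slightly lower (-0.31, adjusted p = 0.0147) and NAP1L5 slightly higher (0.43, adjusted p = 0.0266). Of the 28 tested genes of DNA methylation and H3K9 silencing, 1 was lower and none higher: the de novo methyltransferase DNMT3A, with 1051, 1052 and 1054 normalized counts in WT and 793, 845 and 792 in KO (-0.38 ± 0.05, adjusted p = 0.00157). That share of 3.57% was near the 3.88% of all tested genes.

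No erythroid transcription factor passed the test at D0. Of 20 tested, 0 had an adjusted p below 0.05 in edgeR, 4 had an unadjusted p below 0.05 and 0 passed with DESeq2, and their changes ran from -0.18 to 0.13 with a median of 0.01. GATA1, the master factor of the lineage, had 5665, 5364 and 5297 normalized counts in WT and 6073, 5334 and 5693 in KO. TAL1 stood at 0.06 ± 0.06, GATA2 at 0.10 ± 0.17, and the signal transducers STAT5A and STAT5B at -0.04 ± 0.09 and 0.02 ± 0.04. Among 26 tested regulators of the globin switch only ZBTB16 passed, with 45.7 to 68.7 in WT and 12.8 to 20.7 in KO (-1.77). That share of 3.85% was near the 3.88% of all tested genes. Of the 8 heme synthesis enzymes, ALAD, which makes porphobilinogen, was higher (0.43 ± 0.07, adjusted p = 0.00479), and the other 7 did not pass, with ALAS2 at -0.15 ± 0.12.

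Globin genes moved in different directions. HBB, the adult beta-globin, had 85138, 84905 and 61201 normalized counts in WT and 107460, 105760 and 124670 in KO. It was 0.55 ± 0.11 higher on the log2 scale (adjusted p = 0.0155), with WT replicate 3 the lowest library and no overlap of the groups, and the adjusted p was 0.0939 without KO replicate 3. The fetal gene HBG2 had 60.3, 125 and 52.9 in WT and 21.7, 16.0 and 5.35 in KO (-2.44 ± 0.45, adjusted p = 0.00785). HBG1, whose sequence is nearly that of HBG2, had 2.58 to 5.29 in WT and no read in KO, and did not pass (adjusted p = 0.0538). HBD had 2330 to 2535 in WT and 1314, 4447 and 3362 in KO, a range on both sides of WT. Of the 7 tested genes of the alpha-globin cluster and its chaperone, HBA1 alone passed, at -0.47 ± 0.09 (adjusted p = 0.00915), with the reservation that HBA1 and HBA2 are near copies.

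Of 35 tested red cell membrane genes, 1 was higher and 3 lower, with a median of -0.08, 11.4% called beside 3.88% over all tested genes. Besides SLC4A1, ATP1B2, a beta subunit of the sodium pump, had 245 to 260 normalized counts in WT and 56.7 to 117 in KO (-1.60, adjusted p = 0.000155). ACKR1, the Duffy antigen, had 197 to 227 in WT and 111 to 125 in KO (-0.84). The blood group gene RHD had 124 to 128 in WT and 544, 172 and 353 in KO (1.49 ± 0.33, adjusted p = 0.0242), with 1 KO library close to WT. Without KO replicate 3 the counts of this list were 0 higher and 2 lower, without KO replicate 1 they were 3 and 9, and RHD also lost its call without each WT library.

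Of 28 late erythroid and enucleation genes, 6 were lower and none higher, with a median of -0.06, 21.4% called beside 3.88% over all tested genes. TRIM10, a ubiquitin ligase induced late in erythropoiesis, had 53.9 to 55.5 normalized counts in WT and 0.941 to 13.8 in KO (-3.10, adjusted p = 0.0404). The mitochondrial carrier SLC25A39, which imports glutathione, had 4398 to 4614 in WT and 2415 to 3441 in KO (-0.70 ± 0.12, adjusted p = 0.00429). C17orf99 (-3.52), FAXDC2 (-0.74) and HEMGN (-0.46, adjusted p = 0.0457) were lower too. The count of lower genes was 3 without KO replicate 3, WT replicate 1 or WT replicate 3.

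The cyclin-dependent kinase CDK6, which drives progenitors through G1, was among the abundant genes that differed between KO and WT. It had 6776, 7080 and 6590 normalized counts in WT and 3207, 2526 and 2473 in KO (-1.32 ± 0.14, adjusted p = 0.000118), and the groups did not overlap. CDK6 had 191.8 CPM in this WT and 77.3 in KO. In the 2 WT libraries of the H2A.X experiment, described below, it had only 0.0618 and 0.0638 CPM. An effect of the knockout on CDK6 and a difference between subclones cannot be told apart here. Of the 36 tested MYC and E2F proliferation genes only the helicase subunit MCM4 passed besides it (-0.14 ± 0.04, adjusted p = 0.0471), none was higher, and the median of the list was -0.004. The share called in that list, 5.56%, was near the 3.88% of all tested genes. In EPO, KIT and STAT5 signalling, 2 of 32 were higher and 2 lower, or 12.5% called. Beside VAV3, OSM, a cytokine gene induced by STAT5, was higher (0.33), while the kinase gene MATK, with 234 to 306 in WT and 24.6 to 73.9 in KO (-2.49, adjusted p = 0.00139), and the adaptor gene GAB1 (-0.31) were lower. Of 15 tested glucocorticoid response genes, SGK1 was higher (0.39) and GPX3 (-2.03) and ZBTB16 were lower, or 20% called.

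Of 17 tested genes for H2A.X, its kinases, phosphatases and readers, 1 was higher, the reader MCPH1, which binds phosphorylated H2A.X (0.24 ± 0.05, adjusted p = 0.0113). The changes in this list ran from -0.09 to 2.03. The phosphatase gene EYA4 did not pass in edgeR (adjusted p = 0.295) and differed between the KO libraries. It had a mean of 160 normalized counts in WT and 40.4, 1302 and 616 in KO replicates 1, 2 and 3. Of 31 caspases and apoptotic condensation factors, 1 was higher, the apoptosome scaffold APAF1 (0.30 ± 0.07, adjusted p = 0.032), and the list ran from -0.23 to 0.30. These shares of 5.88% and 3.23% were near the 3.88% of all tested genes. Of 18 genes of the B-WICH complex and RNA polymerase I, 0 passed in edgeR, 1 had an unadjusted p below 0.05 and 1 passed with DESeq2, all between -0.13 and 0.07. Of 33 genes of cholesterol synthesis and uptake 0 passed either, 3 had an unadjusted p below 0.05 and 0 passed with DESeq2, all between -0.22 and 0.22. Of 27 tested p53 genes, the long noncoding RNA PURPL was higher (1.70) and SESN1 (-0.21) and FAS (-0.38) were lower, and of 27 ATF4 targets the pseudokinase TRIB3 was higher, from 252 to 324 in WT to 535 to 552 in KO (0.91 ± 0.14, adjusted p = 0.00212). The shares called were 11.1% of the p53 list and 3.7% of the ATF4 list, the latter near that of all tested genes.

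A list of 34 muscle and heart genes, which serve contraction and cardiac development, was drawn up with earlier results of these data known. Of 15 tested, 1 was higher and 8 lower, 60% against 3.88% of all tested genes, with a median of -1.04. Several members led the DEGs, and DMD, without a KO read, passed the filter on low counts through the WT libraries alone. The share and the median are therefore no independent evidence of a direction. Beside DMD, ZFPM2, SNTG1, LTBP1, MYLK3 and NEXN, the cardiac calcium release channel RYR2 had 210 to 246 normalized counts in WT and 26.6 to 118 in KO (-1.66, adjusted p = 0.0269). The myosin light chain gene MYL4 had 1359 to 1387 in WT and 539 to 757 in KO (-1.04, adjusted p = 0.00223), and the related channel gene RYR3 rose from 157 to 226 in WT to between 651 and 731 in KO (1.78 ± 0.31, adjusted p = 0.00527). Without KO replicate 3 the counts were 1 higher and 7 lower.

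A list of nervous system genes was drawn up with earlier results of these data known and is no independent evidence of a direction. It includes genes the study named for this knockout, such as RELN. Of its 17 tested members 6 were higher and 9 lower, 88.2% called against 3.88% of all tested genes. RELN, the extracellular guidance protein reelin and one of the most abundant genes here, had 29518, 29728 and 27623 normalized counts in WT and 52619, 56074 and 51388 in KO (0.88 ± 0.08, adjusted p = 2.54e-05). PCSK1N, an inhibitor of prohormone processing, had 62.04 to 96.9 in WT and 0 to 5.65 in KO (-4.98). CALB2, the calcium buffer calretinin, had 1.76 to 10.3 in WT and 38.4 to 83.8 in KO (3.48, adjusted p = 0.00235). Of 10 tested neural crest and craniofacial regulators, TFAP2A and PITX1 were lower and SOX4, a progenitor factor of the SOX family, rose from 104 to 121 in WT to 239, 780 and 573 in KO (2.26 ± 0.32, adjusted p = 0.00128). The share called in that list was 30%.

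**Figure D4:**
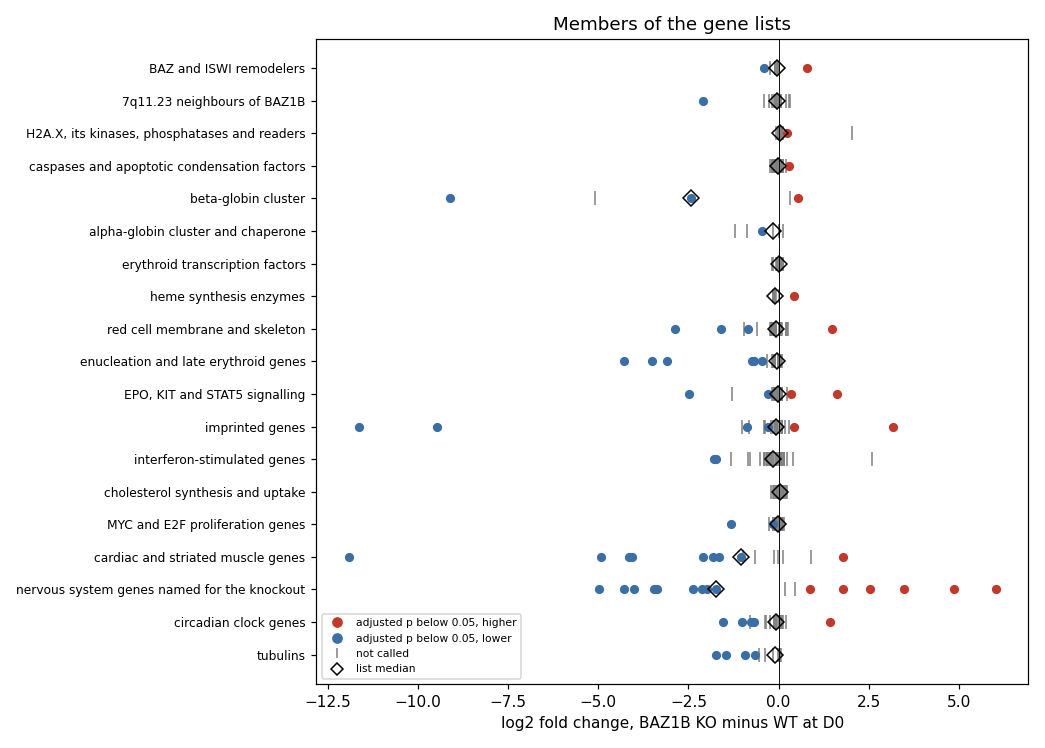
Log2 fold change of KO over WT at D0 for each tested member of 19 gene lists. Red and blue circles are members higher and lower at an adjusted p below 0.05, grey bars the others, and diamonds list medians. Most medians sit near 0, and those of the muscle list (-1.04), the beta-globin cluster (-2.44) and the nervous system list (-1.72) lie lower. The muscle and nervous system lists were drawn up with earlier results of these data known, so their medians are no independent evidence of a direction. The positions of genes without reads in one group, such as DMD and ZNF215, depend on the fit.

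A pair of further lists was added after the values had been seen. Of 21 tested circadian clock genes, ARNTL, the activating arm of the clock, was higher and the repressors CRY2 and PER2 and the clock-controlled genes TEF and USP2 were lower, 23.8% of the list beside 3.88% of all tested genes. ARNTL had 145, 175 and 161 normalized counts in WT and 351, 502 and 438 in KO (1.42 ± 0.17, adjusted p = 0.00027). The repressor CRY2 had 1044 to 1123 in WT and 578 to 735 in KO (-0.78 ± 0.08, adjusted p = 0.00016), and the repressor PER2 968 to 988 and 547 to 699 (-0.69 ± 0.08, adjusted p = 0.000402). TEF stood at -1.005 and USP2 at -1.53, and the median of the list was -0.06. These 5 genes were still called without KO replicate 3. The hour at which cells were taken is not given in the sources used here.

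Of 14 tested tubulins, 4 were lower and none higher, 28.6% beside 3.88% of all tested genes. TUBB2A had 936, 974 and 1010 normalized counts in WT and 346, 361 and 359 in KO (-1.45 ± 0.10, adjusted p = 2.43e-06), and its near copy and neighbour TUBB2B was at -1.72. The platelet tubulin TUBB1 (-0.93) and TUBA4A (-0.66) were also lower, and the count was 2 without KO replicate 3, WT replicate 2 or WT replicate 3. Of 35 tested interferon-stimulated genes, IFIT2, with 49.4 to 68.9 in WT and 8.56 to 26.4 in KO, and its neighbour IFIT3 were lower (-1.75 and -1.80), which made 5.71% of the list, near the 3.88% of all tested genes, and the median was -0.16. Without KO replicate 3, WT replicate 1 or WT replicate 3 the count of lower genes was 1, without WT replicate 2 it was 0, and without KO replicate 1 there were 3 higher and 4 lower.

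Small lists gave single genes. The shares called were 11.1% for vitamin D, 6.25% for arginine and polyamine, 14.3% for antioxidant, 10.3% for glycolysis and 5.88% for iron genes. Over all tested genes the share was 3.88%, and it was 44.4% of the 9 tested mast cell and eosinophil markers. Of 9 tested genes of vitamin D metabolism, CYP27B1, which makes the active hormone, had 24.7, 19.8 and 27.3 normalized counts in WT and 146, 37.6 and 103 in KO (1.99 ± 0.50, adjusted p = 0.0457), with 1 KO library near WT. Of 16 arginine and polyamine genes, AGMAT was lower (-0.46), while ARG2 did not pass (-0.22 ± 0.13). Of 35 antioxidant genes 1 was higher and 4 lower, among them TXNRD1 (-0.19 ± 0.04, adjusted p = 0.0095). Of 29 glycolysis genes, SLC16A8 was higher and PDK4, the brake on pyruvate dehydrogenase (-1.74), and PFKM (-0.36) were lower. Of 17 iron genes, the iron transporter SLC11A2 was lower (-0.24). Among the mast cell and eosinophil markers, IL5RA (-1.64) and HPGDS (-1.69) were lower and MS4A2 (1.07) and PRG2 (1.51) higher.

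At D6 the same subclones mostly showed the same differences. All 36 lower DEGs and all 14 higher DEGs of D0 changed in the same direction at D6. Of the lower ones 33 had an adjusted p below 0.05 and 27 were DEGs at D6, and of the higher ones 12 and 8, where 0.749% of all tested genes were DEGs at D6. Of all 366 lower genes, 193 passed in the same direction at D6 and 5 in the opposite one, and of the 173 higher genes 96 and 1, where 12.8% of all tested genes passed at D6. The effect at D6 differed from that at D0 by the interaction test at an adjusted p below 0.05 for 7 of the 36 lower and 2 of the 14 higher DEGs, beside 2.47% of all tested genes. TNFRSF1B had a mean of 195 normalized counts in WT and 49.4 in KO at D0, and of 1159 in WT and 1090 in KO at D6. PITX1, without a KO read at D0, had a mean of 191 in KO and 1374 in WT at D6. Since both days come from the same subclones, D6 does not add founding cells.

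The H2A.X experiment had its own WT libraries of the same line, 2 at D0. Its table was normalized separately, so levels are set side by side in CPM and were not tested. The level of these 2 WT libraries was closer to the BAZ1B KO mean than to the BAZ1B WT mean for 26 of the 36 lower DEGs (72.2%) and 4 of the 14 higher DEGs (28.6%). For the genes at an adjusted p below 0.05 it was so for 201 of the 366 lower (54.9%) and 48 of the 173 higher ones (27.7%), and over all tested genes for 52.2% of those with a fold change below 0 and 41.1% of those above 0. DMD, ZNF215, AC005064.1 and PEG3 had 13.7, 11.1, 36.2 and 9.18 CPM in the WT of the BAZ1B experiment and 0 in both WT libraries of the H2A.X experiment. TFAP2A had 18.2 in the former and 0.0618 and 0.0638 in the latter. SHE, without a read in the BAZ1B WT, had 10.8 and 6.57, and HBBP1, at 233 in the BAZ1B WT and 0.419 in its KO, had 5.13 and 7.91. SLC4A1, by contrast, had 695 and 489 in these WT libraries, above the 33.9 of the BAZ1B WT. PEG3 reached 109.8 CPM in 1 H2A.X KO library and was at 0 in the other 2. Differences between subclones of one genotype and an effect of the knockout cannot be told apart for genes of this kind with the samples at hand.

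**Figure D5:**
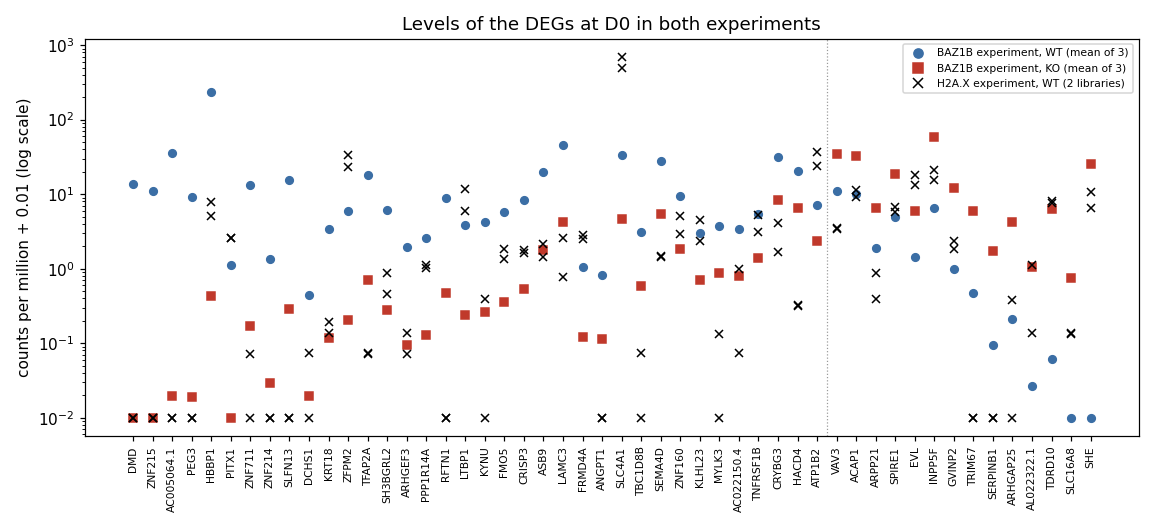
CPM plus 0.01, on a log scale, of the 50 DEGs at D0. Circles are the WT and squares the KO mean of the BAZ1B experiment (3 libraries each), and crosses the 2 WT libraries of the H2A.X experiment, which was normalized separately. Left of the dotted line are the 36 lower DEGs, where the crosses lie closer to the squares in 26.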

How the data were processed

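Raw counts of reads per gene, 1 column per library, were analysed as the authors deposited them. Per the submitters' processing notes and the study's methods, reads were mapped with STAR 2.7.0f to hg38 and counted with featureCounts of Subread 1.6.4, and DESeq2 1.22.1 is listed. The labels name an unstranded TruSeq kit with 100 nt reads and the methods a stranded one with a shorter read length, and the strand setting of the counting is not given in the sources used here. In R 4.3.3, edgeR 4.0.16 was run with filterByExpr (minimum count 10, minimum total 15), TMM, and a two-sided quasi-likelihood test on the 12 libraries of the BAZ1B experiment, each group of genotype and day having its own coefficient. Each p-value was adjusted by Benjamini-Hochberg over 13879 genes. Standard errors come from the F statistic. Errors measure the spread between the deposited libraries, which are fewer than 3 independent KO subclones if KO replicate 3 mixes the other two, and intervals at 95% cover counting error only. If WT libraries share a founding cell, they too are fewer than 3 independent subclones, which was not tested.

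Named genes were BAZ1B, up to 12 DEGs in each direction with the largest changes, a mean normalized count of at least 50 and no overlap, genes the study names, the beta-globin cluster, and up to 4 called genes per list. Some genes this rule covers are left out here. Remaining DEGs and further genes were named after their values were seen. Members and lists were chosen with earlier results of these data known. Gene positions come from GENCODE on GRCh38, with 36434 of 59087 names matched by symbol and 756 by an older symbol, 21602 without a match and 295 shared by more than 1 gene. Promoter windows are from RefSeq. The test was checked on simulated data. Replicates of one genotype differed by more than counting noise, with a median chi-square of 2.07 to 2.66 times that of counting noise in WT and 3.45 to 14.8 times in KO, so all were counted. Alternatives were DESeq2 1.42.0, upper-quartile normalization, no globin genes, no filter, other cutoffs, the D0 libraries alone, a replicate term and leaving out each library.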

Additional observations from a re-analysis of the deposited data

Results flagged for a closer look

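The effect of the knockout differed between D6 and D0 for 22 of the genes named here by the interaction test of edgeR, at an adjusted p below 0.05 over all tested genes. The values are the log2 fold change of KO over WT at D6 minus that at D0.

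The difference was smaller at D6 in 7 of the lower DEGs. SLC4A1 moved by 2.11, from -2.88 at D0 to -0.77 at D6 (adjusted p = 0.0053), and ATP1B2 by 1.19, from -1.60 to -0.41 (adjusted p = 0.00983). The heart factor ZFPM2 moved by 2.19, from -4.92 to -2.73 (adjusted p = 0.00538), and LTBP1, which binds latent TGF-beta, by 2.82, from -4.06 to -1.24 (adjusted p = 0.00118). TNFRSF1B moved by 1.89, from -1.98 to -0.09 (adjusted p = 0.000734), and FRMD4A, a scaffold protein of cell polarity, by 2.95, from -3.16 to -0.21 (adjusted p = 0.00658). PITX1 moved by 5.48, from -8.32 to -2.85 (adjusted p = 0.014), where the D0 value and the move depend on the prior count because no KO library had a read at D0.

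Among other lower genes, C17orf99 moved by 2.80, from -3.52 to -0.72 (adjusted p = 0.0275), and TUBB2A by 0.76, from -1.45 to -0.70 (adjusted p = 0.0154). MYO1D moved by 0.33, from -0.42 to -0.09 (adjusted p = 0.0154), ATP7B by 0.52, from -0.51 to 0.02 (adjusted p = 0.00593), and TFIP11 by 0.64, from -0.39 to 0.25 (adjusted p = 0.000151). HPGDS, a prostaglandin synthase, went the other way by -4.99, from -1.69 to -6.69 (adjusted p = 0.0131), with a mean of 0.33 normalized counts in KO at D6.

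Of the higher genes, ARHGAP25 moved by -4.08, from 4.40 to 0.32 (adjusted p = 0.0229), and TRIM67 by -3.28, from 3.67 to 0.39 (adjusted p = 0.025). At D6 ARHGAP25 was hardly read in either genotype, with a mean of 2.59 normalized counts in WT and 3.25 in KO. TRIB3 moved by -1.01, from 0.91 to -0.10 (adjusted p = 0.0199), and LIF by -1.75, from 0.61 to -1.14 (adjusted p = 0.000734). HBB, higher in KO at D0, moved by -0.84, from 0.55 to -0.29 (adjusted p = 0.0181), and SESN3, a stress-induced regulator of mTORC1, by -0.59, from 0.35 to -0.25 (adjusted p = 0.0218). ZNF689 moved further up by 0.996, from 0.84 to 1.84 (adjusted p = 0.0259).

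A further pair had no call at D0 and one at D6. SELENON, a selenoprotein of the endoplasmic reticulum, moved by 0.89, from 0.28 to 1.18 (adjusted p = 0.0468), and the arginase gene ARG2 by -1.53, from -0.22 to -1.76 (adjusted p = 0.00121).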

How the results depend on the processing

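The cause of the moves below was not tested, apart from those that follow from fewer samples, more genes or other cutoffs. DEGs numbered 14 higher and 36 lower, against 28 and 81 with DESeq2, 80 and 134 without the filter on low counts, 11 and 23 with the D0 libraries alone, and 66 and 169 at a cutoff of 1 on the log2 scale and an adjusted p of 0.05. At an adjusted p below 0.05 the 173 higher and 366 lower genes became 279 and 457 with DESeq2 and 478 and 723 without the filter. Leaving out 1 library gave 7 to 26 DEGs higher and 25 to 44 lower, and 78 to 588 genes higher and 178 to 735 lower at an adjusted p below 0.05. The highest counts came without KO replicate 1, and the lowest without any one WT library (7 DEGs higher each; 78 genes higher without WT replicate 2) or without KO replicate 3 (25 DEGs lower, 178 genes lower). All 50 DEGs kept an adjusted p below 0.05 under each of these fits, except HBBP1 where globin genes were removed. Restricting the DEGs to genes without overlap, an alternative chosen after seeing the data, removed none.

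The replicate numbers do not pair KO with WT subclones: same-numbered deviations correlated at 0.007, 0.042 and -0.009. With a replicate block there were 17 DEGs higher and 35 lower, and 198 genes higher and 387 lower at an adjusted p below 0.05. The 343 genes whose effect differed between the days became 718 with a replicate block for each subclone and 698 with DESeq2.

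Of 81 named genes tested, some lost their call when a library was left out: 22 without KO replicate 3, 12 without KO replicate 2, 4 without KO replicate 1 and 19 without each WT library. With the D0 libraries alone 14 did, HBB among them (adjusted p = 0.0688), and HBB also did without KO replicate 3 (adjusted p = 0.0939). Among these 81, the genes that lost a call under any fit were CYP27B1, HBB, MCPH1, APAF1, HBA1, RHD, ACKR1, SLC11A2, FAXDC2, HEMGN, OSM, SGK1, SESN3, SESN1, FAS, AGMAT, UNC13B, MCM4, PDK4, PFKM, MS4A2, TUBB1 and CEBPE. Genes named in the text outside these 81, such as IFIT2, IFIT3 and TRIM10, are not covered here and may lose their call too. Signs turned only in genes that had not passed. STAT5A ran from -0.154 without KO replicate 1 to 0.0525 without KO replicate 2, and HBD from 0.664 to -0.0806. STAT5B ran from -0.0172 without KO replicate 1 to 0.0458 without KO replicate 2, and stood at -0.0008 without WT replicate 1. HBG1 was called with DESeq2 (adjusted p = 0.0232). Depth limits the folds of genes with no read in one group to bounds.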

Other observations

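Several abundant genes outside the lists differed at D0 and were picked after their values were seen. HPGD, which inactivates prostaglandins, had a mean of 32908 normalized counts in KO and 13207 in WT (1.32 on the log2 scale, adjusted p = 0.00429). FBN1, the microfibril protein fibrillin, stood at 0.64 (adjusted p = 0.0393) and the apolipoprotein gene APOL4 at 0.57 (adjusted p = 0.000169). The copper transporter gene ATP7B was lower (-0.51, adjusted p = 0.000206), as were the transglutaminase gene TGM2 (-0.40, adjusted p = 0.0275), the myosin gene MYO1D (-0.42, adjusted p = 7.86e-05) and TFIP11, a spliceosome disassembly factor (-0.39, adjusted p = 5.95e-05).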
